A study of Mus musculus with 10 samples.

Results

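The genes described here are 10 members of the TGF-beta superfamily system in regenerating mouse muscle: the ligand genes Gdf3, Gdf11, Gdf15, Mstn (myostatin), Inhba, Inhbb, Tgfb1, Tgfb2 and Tgfb3, and the inhibitor gene Fst (follistatin). They are 10 of the 25700 genes counted. The set was selected on the measured difference of 1 gene: Gdf3 was chosen by its log2 fold change and p-value between genotypes, which placed it among the larger upward differences, so the difference of Gdf3 is given below as a description without a test. The other members were included as ligands or as an inhibitor of the same family.

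Messenger RNA was sequenced from whole tibialis anterior muscle taken on day 6 after injection of cardiotoxin, a snake venom toxin that destroys muscle fibers and sets off their regeneration. All mice were 12-week-old C57BL/6 males, and all carried Pax7Cre, a Cre recombinase expressed from the Pax7 gene in muscle stem cells and their descendants. The 5 control mice had Pax7Cre alone (genotype given as wild type), and the 5 miR-501KO mice also carried a floxed miR-501 allele on their single X chromosome (Pax7Cre miR-501 fl/Y, genotype given as miR-501 -/-). Cre acts in the Pax7 lineage, so the deletion is not directed at macrophages, fibroblasts and vessels in the same muscle. Levels of miR-501 were not measured here in any cell type, and the deletion itself was not checked. In bulk tissue, fewer cells of a type and less RNA per cell cannot be told apart.

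Ligands of this superfamily bind pairs of type I and type II receptor kinases and act through SMAD transcription factors. Myostatin, GDF11 and the activins (dimers of the Inhba and Inhbb products) signal mainly through SMAD2 and SMAD3 and restrain muscle growth, follistatin binds and blocks activins and myostatin, and the 3 TGF-beta proteins are secreted in a latent form and promote fibrosis. GDF15 signals through GFRAL in the hindbrain, and GDF3 is a ligand that macrophages of injured muscle make.

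The deleted microRNA is relevant to the members through its seed, bases 2 to 8 of the mature strand, which pair with a target. The RefSeq mature sequence (GRCm38.p6, chrX:7241270-7241291, minus strand) is shown with the seed in capitals.

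mmu-miR-501-3p: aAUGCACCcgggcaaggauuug

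The mature strand of mmu-miR-500-3p has the same seed. A match to all 7 seed bases lay in the 3′UTR of 1 member, Mstn, at position 994 of 1782, and 8.24% of the 14074 tested genes with an annotated 3′UTR hold such a match (1159 genes). Inhba held no such match but 3 matches to bases 2 to 7 within its longer 3′UTR of 4492 bases, a match that 33.8% of tested genes hold. The annotated 3′UTRs of Gdf3, Gdf11, Gdf15, Inhbb, Tgfb1, Tgfb2, Tgfb3 and Fst held neither. The 4 windows are printed from the transcribed strand, with the matching bases in capitals, since Mstn and Inhba are also the members with the widest spread between Pax7Cre mice.

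Mstn 3′UTR, chr1:53067257-53067263, plus strand: ctcccttccaGGTGCATctccacacac

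Inhba 3′UTR, chr13:16028681-16028686, plus strand: tacattgcttGTGCATatgcatatct

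Inhba 3′UTR, chr13:16031127-16031132, plus strand: ttgaaaaacaGTGCATtgacaatggt

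Inhba 3′UTR, chr13:16031342-16031347, plus strand: atttatatgaGTGCATttcaactatg

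The libraries held 18609222 to 22064583 counted reads in Pax7Cre mice and 20046670 to 24753258 in miR-501KO mice. Of 14410 genes tested with edgeR's quasi-likelihood test, 0 had an adjusted p under 0.05, which is 0% of them, and the smallest adjusted p was 1.00. An unadjusted p under 0.05 was reached by 151 genes (1.05%), of which 55 were higher (0.382%) and 96 lower (0.666%) in miR-501KO muscle. A likelihood ratio test with trended dispersion called 19 genes at an adjusted p under 0.05, and DESeq2 called 0. Pax7Cre mice 2 and 4 lay at the ends of the spread of the 10 mice, with scores of 43.9 and -27.5 on a first principal component that held 33.0% of the variance. Pax7Cre mouse 3, the mouse with the lowest Gdf3, stood apart on the second component, at -33.6 against -6.31 for the next lowest mouse. Without mouse 2 of the Pax7Cre group, 1.84% of genes were higher and 1.28% lower at that unadjusted threshold, without mouse 4 these were 1.57% and 1.67%, and without miR-501KO mouse 1 the lower share was 0.408%. The summed level of 12 mature fiber markers (among them Acta1 and Myh4) ran from 35053 CPM in Pax7Cre mouse 4 to 87934 CPM in Pax7Cre mouse 2, against 52244 to 68476 CPM in the miR-501KO mice. Values are therefore given for each mouse, as CPM, read counts scaled to library size (edgeR's TMM method), and differences are log2 fold changes of miR-501KO over Pax7Cre.

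All 10 members passed the filter on low counts. Gdf3 (ENSMUSG00000030117, chr6:122605403-122610087, minus strand) was the least counted member, with 17 to 98 reads per mouse. Its level was 2.73, 1.64, 0.898, 2.05 and 2.40 CPM in Pax7Cre mice 1 to 5 and 3.32, 4.63, 3.83, 2.49 and 3.73 CPM in miR-501KO mice 1 to 5. The miR-501KO mice lay above every Pax7Cre mouse in 4 of 5 cases, and the groups overlapped through miR-501KO mouse 4. The means were 1.94 ± 0.712 CPM and 3.60 ± 0.780 CPM (SD, n = 5 each). The ratio was 1.84-fold, and the log2 fold change 0.88 (SE 0.254). These are the values that led to the choice of the set, and no test is quoted for them. The log2 fold change of Gdf3 ran from 0.71 without Pax7Cre mouse 3, the lowest mouse, to 1.03 without Pax7Cre mouse 1.

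**Figure D1:**
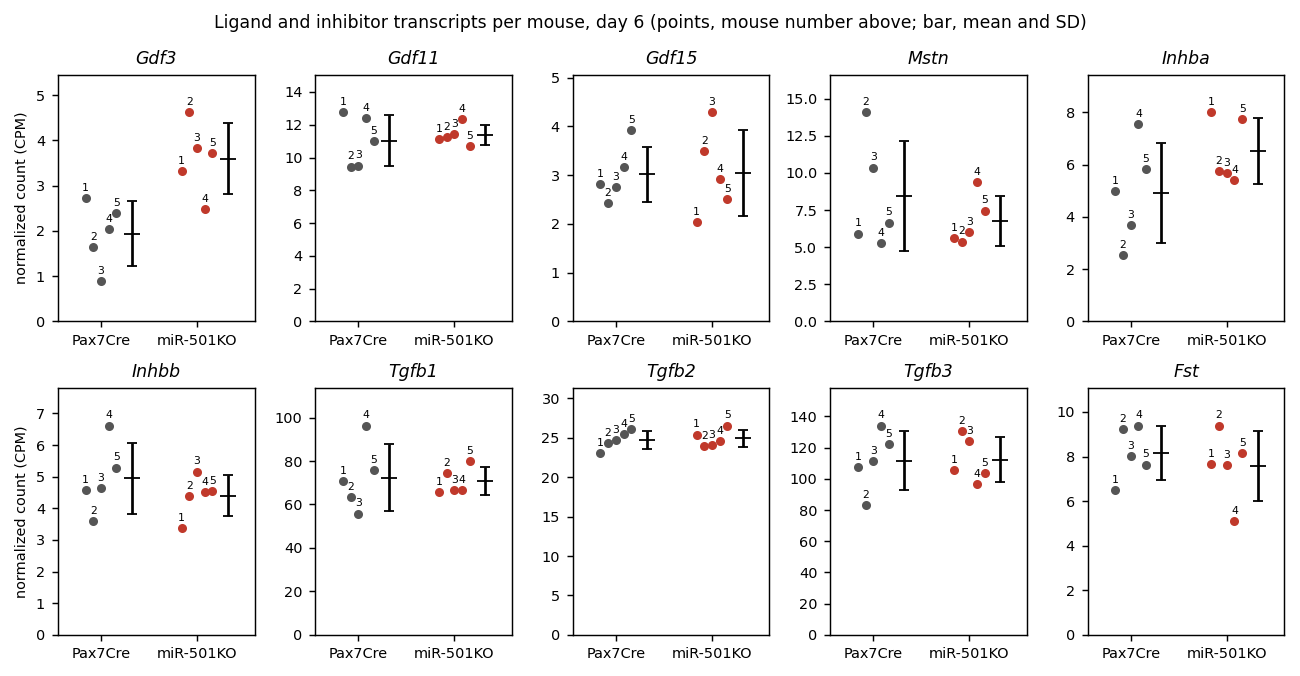
Normalized counts (CPM, from 0) of the 10 members in each mouse. Points are mice with the mouse number above, and the bar beside them is the mean with its SD (n = 5). Gdf3 has 4 of 5 miR-501KO mice above all Pax7Cre mice, whereas Pax7Cre mouse 2 is the highest for Mstn and the lowest for Inhba and Tgfb3.

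Macrophage markers were present in every library. Of 16 such markers, among them Lyz2 and Cd163, none was at 0 in all mice, 0 passed an unadjusted p under 0.05 in either direction, and the median log2 fold change was 0.016. Their summed level was 5966 to 8429 CPM in Pax7Cre mice and 6253 to 7532 CPM in miR-501KO mice, with Lyz2, a lysozyme of macrophages and neutrophils, at 2822 ± 416 and 2778 ± 222 CPM (SD, n = 5 each). Of 7 plasma cell markers, 5 were tested, and all 5 had positive log2 fold changes. The antibody genes Igha (1.23), Igkc (0.91) and Jchain (0.98) passed an unadjusted p under 0.05 in edgeR's test (0.0202, 0.0290 and 0.0227). Of all genes tested, 0.382% were higher at that threshold. Mzb1 (0.39) did not pass, and 0 of the list passed the adjusted threshold. The authors had named these 3 antibody genes among the top regulated ones of this comparison, so their passing was known beforehand. For each of these antibody genes, 2 of 5 miR-501KO mice lay above all Pax7Cre mice. The list summed to 54.2 to 75.7 CPM in Pax7Cre mice and 62.2 to 86.9 CPM in miR-501KO mice, but most of it was Sdc1 (53.8 and 55.8 CPM on average, log2 fold change 0.051), a gene that did not pass. The antibody genes were lower in level, with Igkc the highest at 5.34 ± 2.97 and 9.97 ± 4.08 CPM (SD, n = 5 each), and their part in the Gdf3 difference was not tested. The 6906 positive and 7504 negative log2 fold changes over all genes had a median of -0.0042.

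Neither myostatin nor its closest relative passed the test. Mstn (ENSMUSG00000026100, chr1:53061640-53068079, plus strand) encodes myostatin, which muscle fibers secrete. It was counted at 5.91, 14.1, 10.4, 5.30 and 6.66 CPM in Pax7Cre mice 1 to 5 and at 5.60, 5.38, 6.00, 9.38 and 7.46 CPM in miR-501KO mice 1 to 5. The Pax7Cre range enclosed that of the miR-501KO mice, and Pax7Cre mice 2 and 3 were the 2 highest of all 10. The log2 fold change of Mstn was -0.32 (SE 0.261, 95% interval -0.88 to 0.25), with an unadjusted p of 0.244 and an adjusted p of 1.00 in edgeR's test, and an exact two-sided permutation test over the mice gave p = 0.444. Without Pax7Cre mouse 2 it was -0.061. Gdf11 (ENSMUSG00000025352, chr10:128882295-128891718, minus strand) encodes that relative, GDF11, and was at 12.8, 9.45, 9.51, 12.4 and 11.0 CPM in Pax7Cre mice and at 11.1, 11.2, 11.5, 12.3 and 10.7 CPM in miR-501KO mice. All miR-501KO values of Gdf11 fell within the Pax7Cre range, with a log2 fold change of 0.040 (SE 0.104, 95% interval -0.18 to 0.26, exact permutation p = 0.540).

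The activin subunit genes had log2 fold changes of opposite sign. Inhba (ENSMUSG00000041324, chr13:16011851-16031621, plus strand) encodes the subunit of activin A, and was at 4.97, 2.53, 3.70, 7.54 and 5.83 CPM in Pax7Cre mice 1 to 5 and at 8.0, 5.76, 5.66, 5.40 and 7.76 CPM in miR-501KO mice 1 to 5. The 2 highest values were from miR-501KO mice 1 and 5 and the 3 lowest from Pax7Cre mice 2, 3 and 1, with the groups overlapping in between. The log2 fold change of Inhba was 0.40 (SE 0.242, 95% interval -0.12 to 0.92), with an unadjusted p of 0.124 and an adjusted p of 1.00 in edgeR's test and an exact permutation p of 0.135. It ran from 0.24 without Pax7Cre mouse 2 to 0.61 without Pax7Cre mouse 4, where the unadjusted edgeR p was 0.0177 and the adjusted p 1.00. Inhba passed the unadjusted threshold in 3 of 18 alternatives, which were that one, the likelihood ratio test and the fit without both Pax7Cre mice 2 and 4. Inhbb (ENSMUSG00000037035, chr1:119415465-119422248, minus strand), which encodes the subunit of activin B, had means of 4.94 ± 1.12 CPM in Pax7Cre mice and 4.39 ± 0.650 CPM in miR-501KO mice (SD, n = 5 each). Its log2 fold change was -0.18 (SE 0.169, 95% interval -0.54 to 0.19, exact permutation p = 0.365), with 1 miR-501KO mouse below all Pax7Cre mice and Pax7Cre mouse 4 the highest. This log2 fold change was -0.045 without Pax7Cre mouse 4, -0.093 without miR-501KO mouse 1 and -0.27 without Pax7Cre mouse 2.

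The 3 TGF-beta genes, which encode the cytokines TGF-beta 1, 2 and 3, had log2 fold changes from -0.034 to 0.011, with 95% intervals inside -0.31 to 0.28. Tgfb1 (ENSMUSG00000002603, chr7:25687002-25705077, plus strand) was at 70.6, 63.3, 55.7, 96.4 and 75.7 CPM in Pax7Cre mice and at 65.8, 74.6, 66.5, 66.6 and 80.0 CPM in miR-501KO mice. The highest and the lowest of the 10 mice were both Pax7Cre mice (4 and 3), and the log2 fold change was -0.034 (SE 0.128, 95% interval -0.31 to 0.24, exact permutation p = 0.913). Tgfb2 (ENSMUSG00000039239, chr1:186622792-186705989, minus strand) was the most even member, at 23.1, 24.4, 24.7, 25.4 and 26.1 CPM in Pax7Cre mice and 25.4, 24.0, 24.1, 24.6 and 26.6 CPM in miR-501KO mice. Its coefficient of variation was 4.58% and 4.33%, against 4.38% and 4.22% that counting error alone gives at its mean of 522 and 563 reads. The log2 fold change of Tgfb2 was 0.011 (SE 0.065, 95% interval -0.13 to 0.15, exact permutation p = 0.794). Tgfb3 (ENSMUSG00000021253, chr12:86056745-86079041, minus strand) had means of 112 ± 19.1 and 112 ± 14.6 CPM (SD, n = 5 each), with Pax7Cre mouse 2 the lowest at 83.1 CPM and Pax7Cre mouse 4 the highest at 134 CPM. Its log2 fold change was 0.0067 (SE 0.125, 95% interval -0.26 to 0.28, exact permutation p = 0.952). The genes Ttll5 and Gm37804 overlap Tgfb3 on the opposite strand, and the strand setting of the counting is not given in the sources used here, so reads of these genes may be mixed.

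GDF15 is induced by cell stress. Gdf15 (ENSMUSG00000038508, chr8:70629393-70632456, minus strand) was at 3.02 ± 0.569 CPM in Pax7Cre mice and 3.05 ± 0.876 CPM in miR-501KO mice (SD, n = 5 each), and both the highest mouse (4.29 CPM) and the lowest (2.04 CPM) were miR-501KO mice. Its log2 fold change was 0.011 (SE 0.208, 95% interval -0.44 to 0.46, exact permutation p = 0.968). Fst (ENSMUSG00000021765, chr13:114452290-114458951, minus strand), the follistatin gene, was at 6.49, 9.23, 8.03, 9.39 and 7.64 CPM in Pax7Cre mice and at 7.64, 9.39, 7.62, 5.09 and 8.14 CPM in miR-501KO mice. The lowest value of Fst was from miR-501KO mouse 4, the highest were level in miR-501KO mouse 2 and Pax7Cre mouse 4, and the log2 fold change was -0.10 (SE 0.156, 95% interval -0.44 to 0.23, exact permutation p = 0.579). The log2 fold changes of Gdf11, Gdf15, Tgfb1, Tgfb2, Tgfb3 and Fst changed sign when single mice were left out, so no direction is given for them. None of the 9 members other than Gdf3 passed an unadjusted p under 0.05, where 1.05% of all genes did.

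**Figure D2:**
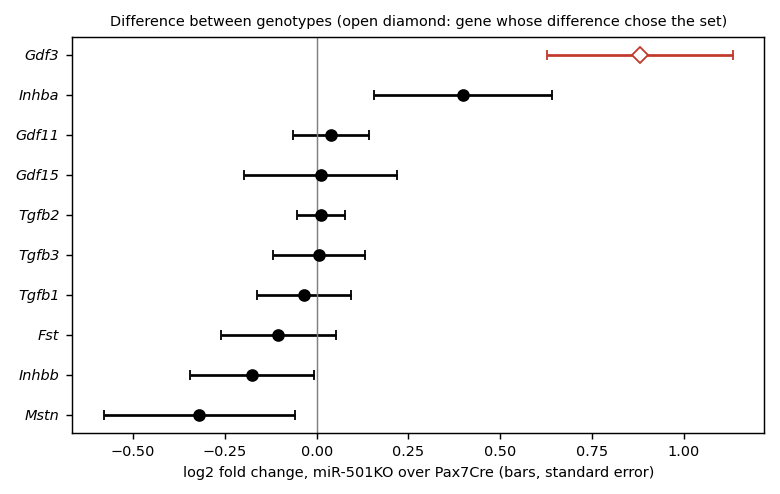
Log2 fold change of miR-501KO over Pax7Cre for each member, with its standard error from edgeR's quasi-likelihood fit. Gdf3 (open diamond, 0.88) is the gene whose difference led to the set, and the other members lie between -0.32 (Mstn) and 0.40 (Inhba).

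The spread between mice was larger in Pax7Cre than in miR-501KO muscle for 8 of 10 members, with Gdf15 and Fst the exceptions, and the same held for 79.5% of all genes tested. The coefficient of variation was 43.8% against 24.7% for Mstn, 39.3% against 19.2% for Inhba, 36.7% against 21.7% for Gdf3 and 21.3% against 8.95% for Tgfb1. For Gdf3, counting error alone gives 15.5% at the mean of 41.8 reads in Pax7Cre mice and 11.1% at 81.6 reads in miR-501KO mice. Among the 5 Pax7Cre mice, mouse 2 was the lowest for 5 members and the highest for Mstn, and mouse 4 was the highest for 5 members and the lowest for Mstn.

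Per kilobase of exon, the members covered a wide range of levels. Tgfb3 was the most abundant at 33.1 CPM per kilobase on average over the 10 mice, followed by Tgfb1 (14.2), Tgfb2 (4.29), Mstn (2.81), Gdf11 (2.76), Fst (1.71), Gdf15 (1.64), Gdf3 (1.14), Inhbb (1.10) and Inhba (0.894). The ranges over mice did not overlap between Tgfb3 and Tgfb1, between Tgfb1 and Tgfb2, or between Gdf11 and Fst, where the first gene was the higher in 10 of 10 mice. Mstn was above Gdf11 in 4 of 10 mice, so those neighbours in the order were not separated beyond their spread. Gdf3 was above Inhbb in 5 of 10 mice, 4 of them miR-501KO, with means of 0.802 and 1.16 CPM per kilobase in Pax7Cre mice and 1.49 and 1.03 in miR-501KO mice, so their place in the order differed by genotype. With the length of the longest transcript in place of all exons, the order was the same, but Tgfb1 was at 27.8 and Fst at 2.69. The range of Tgfb3 (24.6 to 39.7) then overlapped that of Tgfb1 (21.7 to 37.4), and the range of Gdf11 (2.33 to 3.14) that of Fst (1.74 to 3.22), so of the 3 separations only that of Tgfb1 from Tgfb2 held with both lengths.

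**Figure D3:**
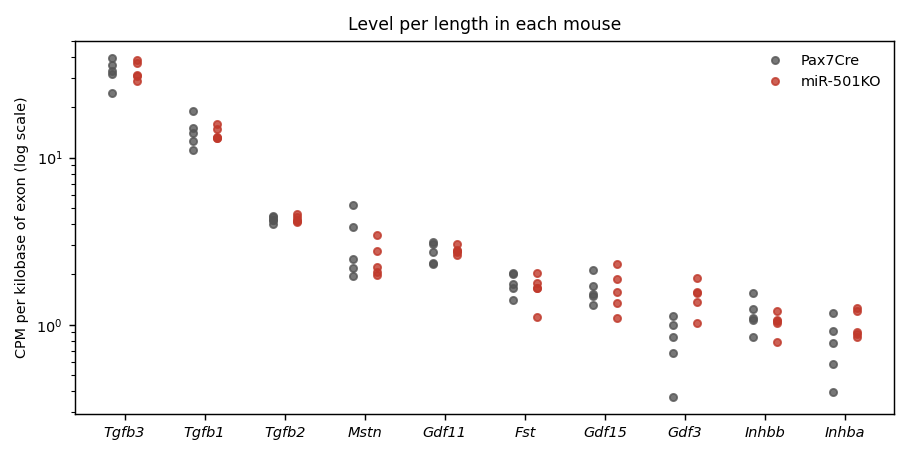
Level per length (CPM per kilobase of exon, log axis) of each member in every mouse, ordered by the mean over the 10 mice. Grey points are Pax7Cre mice and red points miR-501KO mice, and Tgfb3, Tgfb1 and Tgfb2 lie above the rest in nearly every mouse.

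Covariation was examined over the 10 mice with each genotype's mean removed, so that it does not use the difference between genotypes. Of 45 pairs of members, 33 correlated positively and 12 negatively, 5 had an exact permutation p under 0.05, and 0 did after adjustment over the 45. Mstn had a negative coefficient with every other member except Tgfb2 (0.02). The strongest by Pearson r was with Tgfb3 (r = -0.82, exact permutation p = 0.00903, adjusted 0.290, Spearman's rho = -0.76, exact permutation p = 0.0130), and r was -0.49 without the 2 mice farthest from the median. With Inhba, r was -0.80 (exact permutation p = 0.0193, adjusted 0.290, rho = -0.77, exact permutation p = 0.0418), and -0.57 without the 2 farthest mice. Both relations were thus weaker without those mice. The strongest by rho was with Gdf3 (r = -0.68, exact permutation p = 0.0638, adjusted 0.410, rho = -0.84, exact permutation p = 0.0101). For that pair, r was -0.66 without the 2 mice farthest from the median of Gdf3. Among the Pax7Cre mice, mice 2 and 3 were the highest for Mstn and the lowest for Inhba, and mouse 4 was the reverse. Among the miR-501KO mice, mouse 4 was the highest for Mstn and the lowest for Inhba, but mouse 5 was second highest for both, and 5 mice are too few for a coefficient within a genotype. Gdf15 and Inhbb correlated at r = 0.71 (exact permutation p = 0.0169, adjusted 0.290, rho = 0.75, exact permutation p = 0.0160), and at 0.55 without the 2 farthest mice. Tgfb3 correlated with Inhbb at r = 0.76 (exact permutation p = 0.0316, adjusted 0.312, rho = 0.62, exact permutation p = 0.0762), falling to 0.41 without the 2 farthest mice. Its coefficient with Gdf15 was 0.67 (exact permutation p = 0.0347, adjusted 0.312, rho = 0.71, exact permutation p = 0.0375), and 0.76 without them.

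The promoters of Mstn and Inhba, a pair with a negative coefficient whose 3′UTRs also hold the miR-501-3p matches, are printed from RefSeq (GRCm38.p6), 250 bases up to the transcription start, 5′ to 3′ on the gene's strand. Capitals mark E-boxes (CANNTG), the letters that MYOD-family factors bind, which read the same on both strands; TATAAA was also searched on both. RefSeq promoters were matched for 7 of the 10 members.

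Mstn promoter, chr1:53061390-53061639, plus strand: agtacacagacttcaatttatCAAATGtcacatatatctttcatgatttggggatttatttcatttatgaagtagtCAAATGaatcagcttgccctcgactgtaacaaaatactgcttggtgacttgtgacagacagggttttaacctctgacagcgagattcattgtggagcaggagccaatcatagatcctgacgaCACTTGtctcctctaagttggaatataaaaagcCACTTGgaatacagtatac

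Inhba promoter, chr13:16011601-16011850, plus strand: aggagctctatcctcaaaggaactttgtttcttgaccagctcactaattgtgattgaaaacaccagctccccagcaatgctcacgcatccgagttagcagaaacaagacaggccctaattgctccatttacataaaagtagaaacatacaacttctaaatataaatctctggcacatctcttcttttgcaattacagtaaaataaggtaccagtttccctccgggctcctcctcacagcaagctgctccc

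The Mstn window held 4 E-boxes and a TATAAA at base -29 from the start, with a GC content of 38.4%. The Inhba window held 0 E-boxes and a TATAAA at -91, with a GC content of 43.2%. Of 32851 RefSeq promoters of the same length, 66.2% held an E-box and 12.4% a TATAAA.

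The members were then set beside marker scores, the mean log2 CPM of each cell type's markers, again with genotype means removed. Inhba followed the myogenic progenitor markers most closely (r = 0.95, exact permutation p = 0.00194, adjusted over 90 comparisons 0.168, rho = 0.96, exact permutation p = 0.00257), with r = 0.87 without the 2 farthest mice. Tgfb1 correlated with the same score at r = 0.86 (exact permutation p = 0.0148, adjusted 0.168, rho = 0.85, exact permutation p = 0.0149) and 0.81 without the 2 farthest mice. Inhba also correlated with the regenerating fiber score at r = 0.84 (exact permutation p = 0.00583, adjusted 0.168, rho = 0.71, exact permutation p = 0.0570), and at 0.66 without the 2 farthest mice. For Tgfb3, r was 0.84 with the regenerating fiber score (exact permutation p = 0.00812, adjusted 0.168, rho = 0.66, exact permutation p = 0.0419) and -0.82 with the mature fiber score (exact permutation p = 0.0131, adjusted 0.168, rho = -0.66, exact permutation p = 0.0519). These were 0.43 and -0.41 without the 2 farthest mice, on which they rested. Mstn correlated with the mature fiber score at r = 0.80 (exact permutation p = 0.0149, adjusted 0.168, rho = 0.60, exact permutation p = 0.133) and with the fibro-adipogenic progenitor score at r = 0.86 (exact permutation p = 0.0128, adjusted 0.168, rho = 0.89, exact permutation p = 0.00840). With the regenerating fiber score, r of Mstn was -0.80 (exact permutation p = 0.0147, adjusted 0.168, rho = -0.61, exact permutation p = 0.106). Without the 2 farthest mice these 3 coefficients were 0.42, 0.28 and -0.28, so these relations of Mstn rested on those mice. Mstn against the myogenic progenitor score gave r = -0.79 (exact permutation p = 0.0282, adjusted 0.247, rho = -0.70, exact permutation p = 0.0835), and -0.51 without the 2 farthest mice. Inhba had negative coefficients with the fibro-adipogenic progenitor score (r = -0.83, exact permutation p = 0.0220, adjusted 0.220, rho = -0.84, exact permutation p = 0.0265) and the endothelial score (r = -0.77, exact permutation p = 0.0302, adjusted 0.247, rho = -0.66, exact permutation p = 0.0482). These were -0.068 and -0.27 without the 2 farthest mice, on which they rested. Fst correlated with the T cell score at r = 0.69 (exact permutation p = 0.0422, adjusted 0.317, rho = 0.78, exact permutation p = 0.0156), and at 0.19 without the 2 farthest mice. Gdf3 correlated with the macrophage score at r = 0.49 (exact permutation p = 0.245, adjusted 0.630, rho = 0.45, exact permutation p = 0.249) and with the fibro-adipogenic progenitor score at r = -0.72 (exact permutation p = 0.0534, adjusted 0.343, rho = -0.82, exact permutation p = 0.0194), at 0.40 and -0.66 without the 2 farthest mice. Its largest positive coefficient was with the plasma cell score, r = 0.59 (exact permutation p = 0.113, adjusted 0.452, rho = 0.33, exact permutation p = 0.393), and 0.64 without the 2 farthest mice. Of the 90 comparisons, 0 passed after adjustment.

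**Figure D4:**
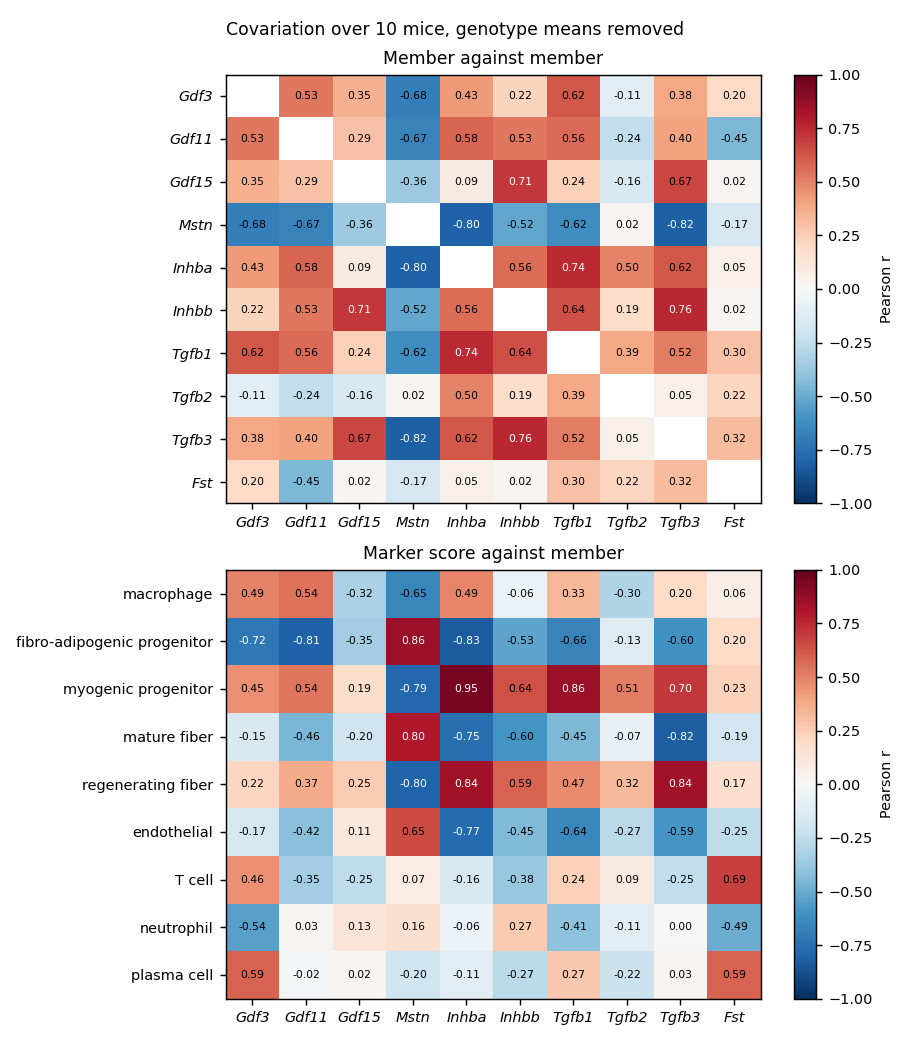
Pearson r over 10 mice, genotype means removed, between members (upper panel) and between marker scores and members (lower panel), on a color scale from -1 to 1. Mstn has the opposite sign to most members, and Inhba with the myogenic progenitor score (0.95) is the highest value in the lower panel.

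Among the marker lists, the plasma cell list had the largest median log2 fold change (0.91 over 5 genes, with 3 passing an unadjusted p under 0.05), and 0 markers of the other lists passed. The median was 0.050 for 9 myogenic progenitor markers, 0.060 for 12 mature fiber markers, 0.041 for 8 regenerating fiber markers, -0.052 for 10 fibro-adipogenic progenitor markers, -0.061 for 7 endothelial markers, -0.075 for 7 T cell markers and -0.028 for 5 neutrophil markers.

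The genes with patterns over the mice most like a member's were ranked among 13565 genes, with no test. The measure was Pearson r of log2 CPM over the 10 mice, again with genotype means removed, so it leaves out the difference between genotypes. For Gdf3 they were Gdpgp1 (0.95), Rab36 (0.91), Zbtb3 (0.91), Tigd5 (0.91) and Ercc4 (0.90). For Mstn they included Gm38393 (0.96), Ktn1 (0.96), Ccdc117 (0.95) and Yap1 (0.95), and for Fst they were Zbtb49 (0.93), AW554918 (0.91), Itpk1 (0.91), Fbxl12 (0.89) and Kctd21 (0.88). The mice share library depth and tissue composition, which enter each of these values.

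The rest of the pathway was read in 7 lists holding 106 genes, of which 85 were tested. Of these, 4 passed an unadjusted p under 0.05 (4.71%, against 1.05% of all genes), all 4 lower in miR-501KO muscle, and 0 passed the adjusted threshold. The lists were chosen with earlier results of these data known, so the share is a description and no test of the pathway. The 4 became 7 without Pax7Cre mouse 2 and 9 without Pax7Cre mouse 4. The 85 genes had 38 positive and 47 negative log2 fold changes with a median of -0.0089.

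Of 24 other ligands, 12 were tested, with 6 positive and 6 negative differences and a median of -0.019. Bmp3, a BMP that antagonizes other BMPs, was lower with 4 to 19 reads per mouse (log2 fold change -0.90, SE 0.367, unadjusted edgeR p = 0.0289, exact permutation p = 0.0794). Its adjusted p in edgeR's test was 1.00, and it passed the unadjusted threshold in 11 of 17 alternatives. Bmp7, at the other end of the list, had 0.45 (SE 0.319).

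All 12 type I and type II receptors were tested, 0 passed, and 10 of 12 differences were negative with a median of -0.030. Tgfbr2, the type II receptor of the TGF-beta proteins, was the most abundant per length at 24.1 CPM per kilobase, and its log2 fold change was -0.069 (SE 0.082). The extremes were Amhr2, the anti-Müllerian hormone receptor (0.52, SE 0.533), and Acvr1c, the ALK7 receptor (-0.28, SE 0.434). The co-receptors and decoys (7 tested of 10) had a median of -0.081 with 0 passing. Hemojuvelin, Hjv, a BMP co-receptor made in muscle, was the most abundant of them at 69.9 CPM per kilobase and its log2 fold change was 0.014 (SE 0.188). Gfral, the receptor of GDF15, was at 0 in every mouse.

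Extracellular inhibitors (12 tested of 17) had 9 negative and 3 positive differences with a median of -0.12, and 0 passed. Noggin, Nog, which blocks BMPs, was the lowest (-0.50, SE 0.314), Wfikkn2, which binds myostatin and GDF11, the highest (0.12, SE 0.274), and decorin, Dcn, a matrix proteoglycan that binds TGF-beta, the most abundant (140 CPM per kilobase, log2 fold change -0.078, SE 0.150). Among genes of ligand latency and activation (15 tested of 16, median 0.011), Pcsk5, a proprotein convertase that cleaves GDF11, was lower. Pcsk5 was at 13.5, 20.1, 17.2, 21.1 and 17.6 CPM in Pax7Cre mice and at 10.8, 17.4, 13.5, 13.4 and 13.1 CPM in miR-501KO mice, a log2 fold change of -0.39 (SE 0.139, unadjusted edgeR p = 0.0144, adjusted 1.00, exact permutation p = 0.0397). The groups overlapped through miR-501KO mouse 2, which lay above Pax7Cre mice 1 and 3, and Pcsk5 passed the unadjusted threshold in 17 of 18 alternatives.

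The 12 SMADs and regulators had 7 positive and 5 negative differences with a median of 0.010, from Smad6, an inhibitory SMAD (-0.18, SE 0.190), to Skil, a SMAD repressor (0.16, SE 0.092), and 0 passed. Of 15 target genes, 2 passed an unadjusted p under 0.05, where 1.05% of all genes did. These 2, Id1 and Id3, are inhibitors of DNA binding that BMP signals induce through SMAD1 and SMAD5. The list also holds Id2 (log2 fold change 0.039, SE 0.113) and Id4 (-0.068, SE 0.199), which did not pass. Id1 was at 24.8, 24.2, 23.8, 19.2 and 20.7 CPM in Pax7Cre mice and at 14.6, 16.2, 16.0, 23.6 and 14.6 CPM in miR-501KO mice. All miR-501KO mice but mouse 4 lay below every Pax7Cre mouse. The log2 fold change of Id1 was -0.41 (SE 0.134, unadjusted edgeR p = 0.00906, adjusted 1.00, exact permutation p = 0.0238).

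Id3 was at 48.1, 41.8, 46.0, 38.2 and 38.9 CPM in Pax7Cre mice and at 32.8, 37.9, 36.8, 37.7 and 34.6 CPM in miR-501KO mice. Every miR-501KO mouse lay below every Pax7Cre mouse, a separation found for 20 of the 14410 genes (0.139%), although the gap between 37.9 and 38.2 CPM was narrow. The log2 fold change of Id3 was -0.24 (SE 0.081, unadjusted edgeR p = 0.0103, adjusted 1.00, exact permutation p = 0.00794, the smallest that 5 against 5 mice can give). Id1 and Id3 passed the unadjusted threshold in 18 of 18 alternatives, with the smallest adjusted p at 0.604 and 0.983. The remaining 13 target genes did not pass, and the median of the 15 was 0.039, with Ccn2, a connective tissue growth factor, at 0.29 (SE 0.246). Col1a1, the collagen gene with the highest level of the list (1108 CPM per kilobase), had a log2 fold change of 0.014 (SE 0.192).

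**Figure D5:**
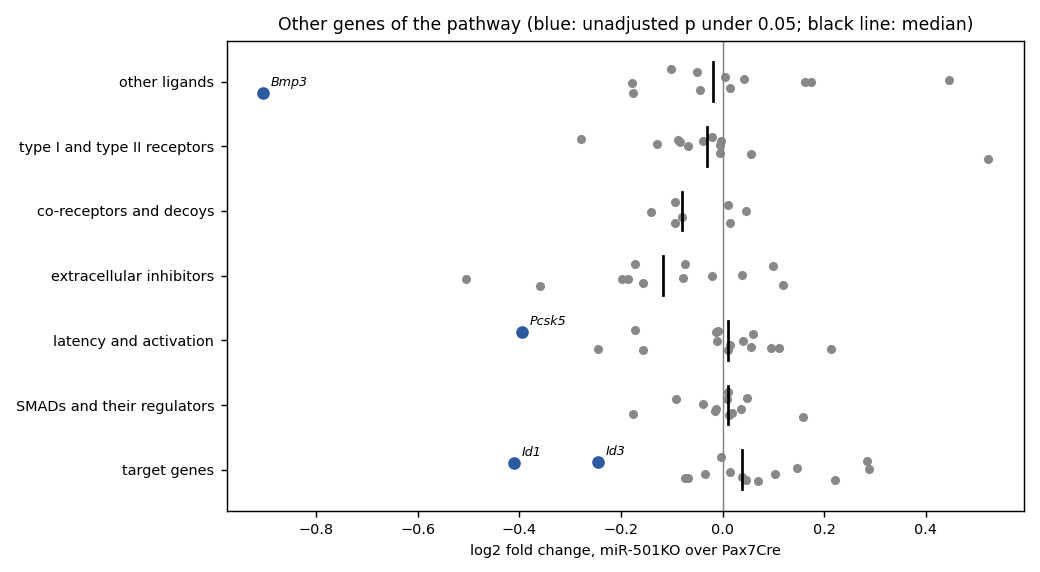
Log2 fold change (miR-501KO over Pax7Cre) of the 85 tested genes in 7 pathway lists, 1 point per gene, with vertical scatter added for legibility and a black line at each list's median. The 4 blue points with an unadjusted p under 0.05, Bmp3, Pcsk5, Id1 and Id3, all lie below 0.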

How the data were processed

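Bulk mRNA libraries (stranded TruSeq, single-end) of 10 tibialis anterior muscles were sequenced by the authors. The deposited files hold raw counts of reads per gene for each mouse. The submitters' processing notes name STAR, featureCounts, R 3.5.1 and GRCm38 patch p5. The counting strand and the treatment of multimapping reads are not given in the sources used here. Of 25700 gene IDs, 25664 matched GENCODE M21, and 5846 genes were at 0 in all mice. Mice of one genotype were not copies of each other (chi-square per degree of freedom at least 9.47). The authors call the controls littermates, but which mice shared a litter is not given. The genotype tests took the mouse as the unit. They set the difference between genotypes against the spread between mice or against relabelings of the mice.

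Genes were kept by edgeR's expression filter (minimum count 10, minimum total 15), scaled by TMM and tested with edgeR 4.0.16 (quasi-likelihood, biological coefficient of variation 0.149) in R 4.3.3, with Benjamini-Hochberg adjustment over all 14410 genes, and were checked on simulated data. Log2 CPM used a prior count of 2. Members had exact two-sided permutation tests over mice in scipy 1.17.1. Correlations were tested by all 14400 reorderings within genotypes (exact enumeration in place of the random resampling planned). Levels used the exon union of GENCODE M21. Promoters and the microRNA came from RefSeq.

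The members and all gene lists were chosen with earlier results of these data known. Named genes were all members and, from each pathway list, those with an unadjusted p under 0.05, otherwise the largest and smallest log2 fold change, with the most abundant per length, and for Gdf3, Mstn and Fst the 5 genes of highest r among those with at least 1 CPM. One of the genes this rule names is not reported here.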

Additional observations from a re-analysis of the deposited data

How the results depend on the processing

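The count of genes at an adjusted p under 0.05 was 0 in the reported fit and 19 with the likelihood ratio test. The share of genes tested that were higher at an unadjusted p under 0.05 was 0.382%, and became 0.771% with no filter, 0.854% with the likelihood ratio test, 0.269% to 1.84% with single mice left out and 1.91% without both Pax7Cre mice 2 and 4, a setting chosen after seeing the data. The lower share of 0.666% became 0.408% to 1.67% with single mice left out and 1.73% without both Pax7Cre mice. The 4 pathway genes became 7 with the likelihood ratio test, 3 to 9 with single mice left out and 9 without both Pax7Cre mice. The cause was not tested.

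With single mice left out, the log2 fold change of Gdf11 ran from -0.013 to 0.098, of Gdf15 from -0.15 to 0.13, of Tgfb1 from -0.11 to 0.092, of Tgfb2 from -0.012 to 0.031, of Tgfb3 from -0.084 to 0.082 and of Fst from -0.19 to 0.0069. Without both Pax7Cre mice, Gdf15 was at -0.055, Tgfb1 at 0.070, Tgfb3 at -0.019 and Fst at 0.042. Mstn, Inhba and Inhbb kept their direction in all 18 alternatives, among them DESeq2, its size factors and a newer quasi-likelihood form. So did Gdf3, but it was chosen for its upward difference in these same counts, so its kept direction is no check on that difference.

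Mice of the 2 groups share numbers. Deviations of same-numbered mice from their genotype means correlated with both signs (r = 0.34, -0.15, 0.16, -0.30 and 0.20). These values were not set against a chance level, so they cannot tell whether the numbers pair the mice. With a replicate block, 0.604% of genes were higher at that threshold, the log2 fold change of Gdf15 was -0.013 and that of Gdf3 was 0.90, and it changed no call on the members. Depth limits Gdf3 (17 to 98 reads) and Gdf15 (46 to 103 reads) most: counting error alone gives 15.5% and 12.5% in Pax7Cre mice and 11.1% and 12.1% in miR-501KO mice.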
